A study of Homo sapiens with 12 samples.

Results

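The late-numbered miRNAs on a miScript miRNA PCR Array of OCI-My5 myeloma cells were examined, which is to say the assays named miR-548 or higher. Of the miRNA assays on each array, 41 met this rule after 12 numbers or names in this range had been left out, and the remaining 331 served as the comparison. Each array was a plate of real-time PCR wells, and each well gave a threshold cycle (Ct), the cycle at which its product became detectable, so that a lower Ct means more of the miRNA and 1 cycle is about a doubling. OCI-My5 is a human multiple myeloma cell line, and both lines used here derive from it. My5.LV carries the lentivirus vector, expresses a low level of cereblon (CRBN) and is resistant to lenalidomide, and My5.CRBN carries human CRBN cDNA, expresses a high level and is sensitive. Each line was analysed untreated, with the AGO2 shRNA construct 72 (My5.LV.sh72 and My5.CRBN.sh72), with tagged AGO2 cDNA (My5.LV.AGO2 and My5.CRBN.AGO2), with 10 μM lenalidomide for 3 days (Len3d) or for 5 days (Len5d), and with AGO2 cDNA together with lenalidomide for 3 days (AGO2+Len3d). The shRNA and the cDNA were delivered by lentivirus, and RNA was taken after 3 days. The labels name no array of cells infected with an empty shRNA or AGO2 cDNA vector, and knockdown rested on 1 shRNA construct. No array is labelled as treated with the vehicle DMSO, and the 1 untreated array of each line carries no culture time. An effect of lenalidomide therefore cannot be told apart from that of vehicle or of 3 or 5 days of culture. There were 12 arrays for the 12 conditions, 1 each, without replicates. The arrays have no assay for AGO2 or CRBN mRNA, so neither the knockdown nor the CRBN level can be checked on them. The paper reports western blots in which AGO2 shRNA lowered AGO2 protein in both lines. In its blots My5.CRBN cells also had more CRBN and less AGO2 than My5.LV cells, so the lines differed in AGO2 before treatment.

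A miRNA is cut from a hairpin transcript in the nucleus by Drosha and in the cytoplasm by Dicer, and 1 of the strands is loaded into an Argonaute protein, of which AGO2 is the member that can also cleave a target RNA. The seed, bases 2 to 8 of the mature strand, does most of the pairing with target mRNAs. miRNAs are numbered in the order of their discovery, and many with late numbers are poorly conserved or restricted to few tissues. Lenalidomide binds cereblon, the substrate receptor of a ubiquitin ligase, and is used to treat multiple myeloma.

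The mature sequences of the miRNAs on which the results turn are given first, 5′ to 3′, with the seed in capitals. The first 3 were lower in AGO2-sh72 treated cells, miR-1324 and the next 4 were lower after 5 days of lenalidomide, miR-708-3p is the opposite arm of the miR-708-5p hairpin, and miR-580-3p had the largest single rise. Sequences and positions are those of RefSeq on GRCh38.p14.
miR-652-3p: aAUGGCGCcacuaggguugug
miR-744-5p: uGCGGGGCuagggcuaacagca
miR-1324: cCAGACAGaauucuaugcacuuuc
miR-708-5p: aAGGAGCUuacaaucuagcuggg
miR-643: aCUUGUAUgcuagcucagguag
miR-581: uCUUGUGUucucuagaucagu
miR-1290: uGGAUUUUuggaucaggga
miR-708-3p: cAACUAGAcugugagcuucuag
miR-580-3p: uUGAGAAUgaugaaucauuagg
miR-639, miR-1207-5p, miR-549a, miR-575, miR-588 and miR-661 had no mature entry under their names in the table used here.

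The listed miRNAs share no seed with each other. Across the 35 late-numbered miRNAs with a sequence, 0 shared a seed with any of the 330 assays that could be matched, whereas 102 of the 295 matched earlier miRNAs (34.6%) shared theirs with another assay. A mature length of 21 to 23 bases was found in 26 of the 35 (74.3%) and in 282 of the 295 (95.6%), and the late-numbered ones ran from 17 bases (miR-4258) to 25 (miR-608). Only 11 of the 35 (31.4%) began with U, against 133 of the 295 (45.1%). Median GC content was similar, 47.8% against 47.6%, although the late-numbered miRNAs spanned 23.8% (miR-606) to 82.4% (miR-4258). No assay on the array was named miR-548, and the only arms of a mirtron, a hairpin released by splicing in place of Drosha, were miR-1224-5p and miR-1224-3p.

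Of the 35 positions, 29 lay within the bounds of another gene, 27 of them a protein-coding gene. The table gives bounds only, so exon, intron or UTR is not stated. The strand of the gene was not compared, so a gene on the opposite strand is counted too. miR-744-5p lies at chr17:12081909-12081930 on the plus strand within MAP2K4, a kinase of the JNK pathway, and miR-652-3p at chrX:110055389-110055409 on the plus strand within TMEM164. miR-708-5p and miR-708-3p lie on the minus strand of chromosome 11, at chr11:79402077-79402099 and chr11:79402032-79402053, within TENM4, a teneurin. miR-643 lies at chr19:52281857-52281878 (plus strand) within ZNF766, miR-581 at chr5:53951564-53951584 (minus strand) within ARL15, miR-580-3p at chr5:36147907-36147928 (minus strand) within LMBRD2 and miR-1290 at chr1:18897078-18897096 (minus strand) within ALDH4A1. miR-1324 lies at chr3:75630823-75630846 (plus strand) within CLUHP10, a pseudogene. miR-802, at chr21:35720732-35720754 on the plus strand, was among the 6 outside any other gene.

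The late-numbered miRNAs were weakly expressed in OCI-My5 cells. Their mean Ct over the 12 arrays, with Ct capped at 35, had a median of 29.6 cycles, against 28.1 for the other 331. Only 2 of the 41 (4.88%) had a mean Ct under 26, against 124 of the 331 (37.5%), and 23 (56.1%) fell between 28 and 32, against 113 (34.1%). The most abundant was miR-1290, known from studies of lung cancer, with a mean Ct of 23.6, which ranked 74 among all assays. miR-1207-5p (25.3) and miR-1180-3p (26.03) followed. A Ct depends on the assay as well as on the miRNA, so this order is approximate.

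At the other end of the order were miR-583 (33.8), miR-802 (34.5) and miR-606 (34.97). On every array 35 of the 41 were under the cap, as were 279 of the 331. miR-606 was at the cap on 10 arrays. miR-802, a miRNA studied in liver and obesity, was at the cap on 9 arrays and had a Ct of 32.1 in My5.CRBN.sh72, 32.6 in My5.CRBN.Len5d and 33.9 in My5.LV.AGO2+Len3d. Its detection on 3 of 12 arrays, with no repeat of any condition, was not tested.

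**Figure D1:**
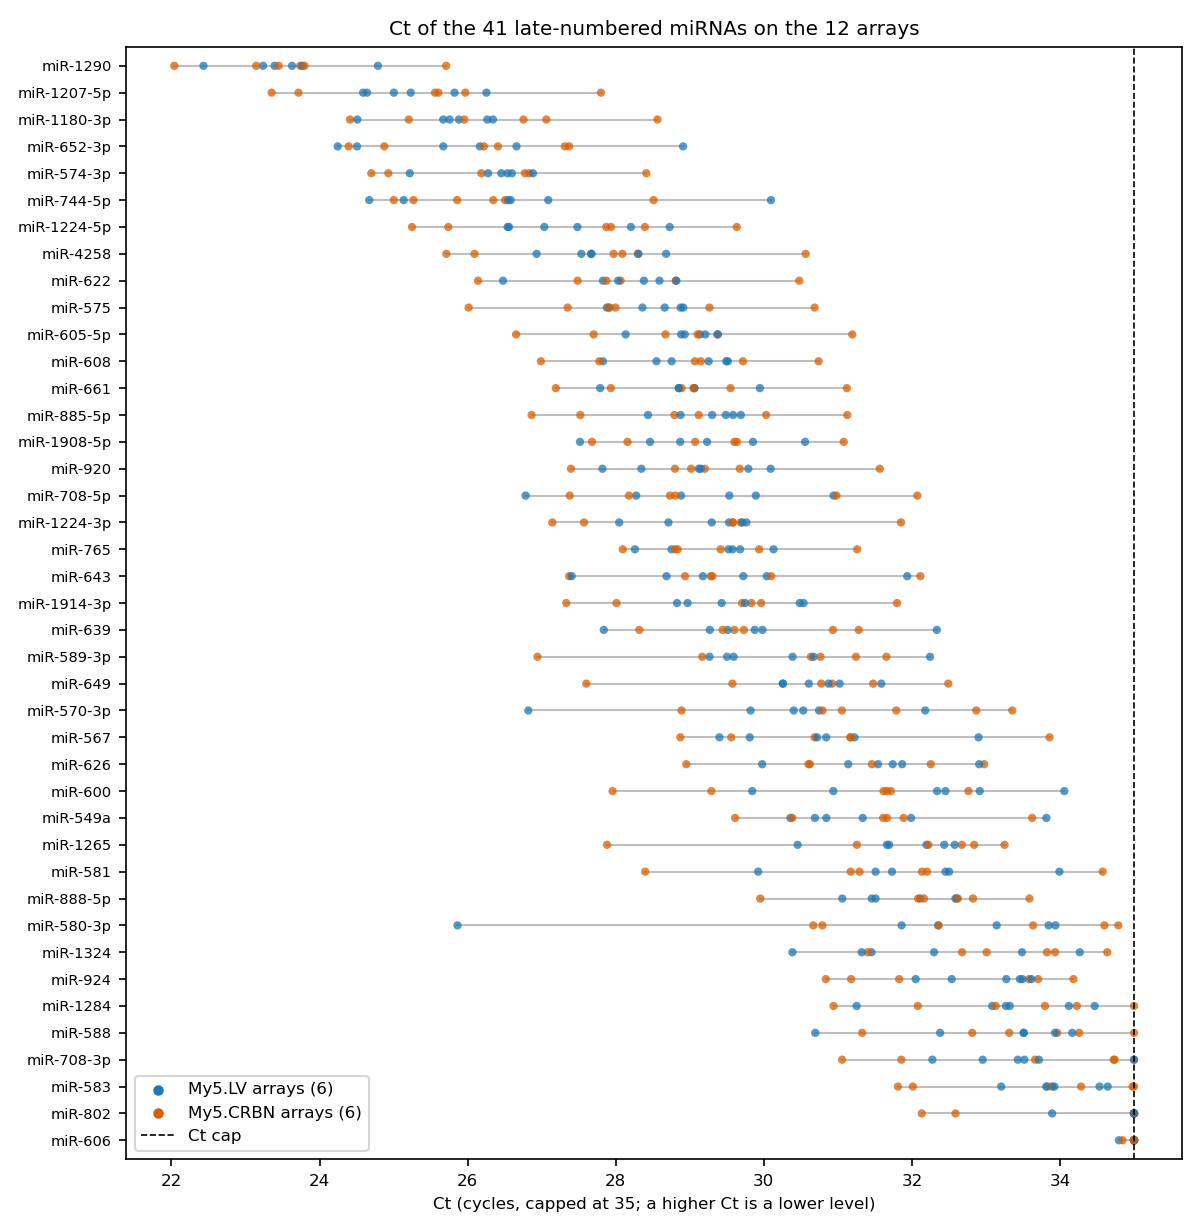
Ct in cycles (x axis, capped at 35, dashed line) of the 41 late-numbered miRNAs (y axis, lowest mean Ct at top) on the 12 arrays, 1 point per array, blue for My5.LV and orange for My5.CRBN cells, with a grey line from the lowest to the highest. miR-1290 had the lowest mean Ct (23.6), miR-802 and miR-606 were mostly at the cap, and 1 array of miR-580-3p lay at 25.9, apart from its others.

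The arrays themselves differed in raw Ct. The 6 wells of small-RNA controls (SNORD61, SNORD68, SNORD72, SNORD95, SNORD96A and RNU6-2) had a mean that ran from 18.7 cycles in My5.LV.AGO2+Len3d and My5.CRBN.Len5d to 21.9 in My5.CRBN.AGO2, the array with the fewest late-numbered miRNAs under the cap (35, against 38 to 40 on the others). This mean was therefore subtracted from each Ct to give the normalized Ct, and a log2 fold change is the untreated array's normalized Ct minus the treated array's. Duplicate wells of the reverse transcription control differed by 0.187 cycles (root mean square over 12 arrays) and those of the PCR control by 0.383, which is the only technical error that these plates measure. After normalization the median SD of a late-numbered miRNA over the 12 arrays was 0.82 cycles, against 0.75 for the others. miR-1908-5p (SD 0.26) and miR-608 (SD 0.34) varied least, and miR-580-3p (SD 1.79), miR-708-5p (1.47), miR-639 (1.40) and miR-581 (1.35) varied most.

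Single pairs of arrays allow no test, and counts at 3 fold are descriptions of those pairs. For a test, limma was fitted to all miRNAs on the 12 arrays with the cell line and the condition as terms, so that the 2 lines took the place of replicates and a response that differed between them counted as error. A miRNA was called at a Benjamini-Hochberg adjusted p under 0.05 over all miRNAs. Nothing in the labels names separate cultures of a condition, so these p-values measure only the spread between arrays.

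AGO2-sh72 treatment asks how the steady-state levels of miRNAs respond to less AGO2. Among the late-numbered ones miR-744-5p, miR-652-3p and miR-1324 were lower in both lines, and no other passed the test. The median log2 fold change of the 41 was -0.22 in My5.LV and -0.02 in My5.CRBN, against -0.79 and -0.52 for all miRNAs. The control wells themselves spread by an SD of 0.51 and 0.30 in these pairs. In My5.LV, 4 of the 41 (9.76%) were at least 3 fold lower, against 23.7% of all miRNAs, and 2 were at least 3 fold higher, against 1.88%. In My5.CRBN, 2 (4.88%) were at least 3 fold lower, against 12.9%, and 1 higher, against 1.61%, this being miR-802, whose change is a bound because it was at the cap without treatment.

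In the fit over both lines, 3 of the 41 (7.32%) fell, against 28.5% of all miRNAs, and 0 rose, against 0.806%. An unadjusted p under 0.05 was reached by 5 of the 41 in either direction, against 151 of all miRNAs. With a mean Ct from 28 to 32, 0 of 23 late-numbered and 13 of 113 other miRNAs fell, and the median changes of these were -0.18 and -0.37 in My5.LV and -0.13 and -0.06 in My5.CRBN. The 3 late-numbered miRNAs that fell lay outside this class, with a mean Ct of 26.1 (miR-652-3p), 26.5 (miR-744-5p) and 32.7 (miR-1324). The split by Ct was made after seeing the data, and weak expression as a reason for the low share was not tested. Scaled to the mean of the 314 miRNAs under the cap on all arrays, the median of all miRNAs moved to 0.07 in My5.LV and 0.02 in My5.CRBN, and that of the late-numbered ones turned to 0.64 and 0.53, so that the sign of their median with AGO2-sh72 depended on the scaling.

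miR-744-5p, reported to target TGFB1, had a normalized Ct of 6.42 in untreated My5.LV and 5.55 in untreated My5.CRBN, and of 9.12 in My5.LV.sh72 and 8.07 in My5.CRBN.sh72. On the other 8 arrays it was 5.95 (My5.LV.AGO2), 4.64 (My5.CRBN.AGO2), 6.18 (My5.LV.Len3d), 6.198 (My5.CRBN.Len3d), 5.53 (My5.LV.Len5d), 6.30 (My5.CRBN.Len5d), 5.95 (My5.LV.AGO2+Len3d) and 5.53 (My5.CRBN.AGO2+Len3d). The AGO2-sh72 arrays thus stood below all 10 others in level, without overlap. Such a separation, here and below, was read off miRNAs named or called from these same arrays, so it adds no support to their calls. How many of all miRNAs separated likewise was not counted. The log2 fold change was -2.70 in My5.LV and -2.51 in My5.CRBN, and -2.61 ± 0.51 (SE) over both lines, with an adjusted p of 0.0127 in limma. With the global mean in place of the control wells it was -1.90, with an adjusted p of 0.0791.

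miR-652-3p was also lowest on the 2 AGO2-sh72 arrays. Its normalized Ct was 7.94 in My5.LV.sh72 and 6.87 in My5.CRBN.sh72, and between 4.64 (My5.LV.Len5d) and 5.89 (My5.CRBN.AGO2+Len3d) on the 10 others, which again did not overlap with the AGO2-sh72 arrays. The change over both lines was -1.84 ± 0.47 (SE) on the log2 scale (limma adjusted p = 0.0228), and -1.13 with the global mean (adjusted p = 0.146). It was -1.18 without My5.LV.sh72 and -2.50 without My5.CRBN.sh72.

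miR-1324 was close to the limit of detection. Its normalized Ct was 10.2 in My5.LV, 13.3 in My5.LV.sh72, 12.2 in My5.CRBN and 14.2 in My5.CRBN.sh72, both treated arrays having a raw Ct of 34.3 and 34.6. Here the groups overlapped with other conditions, since My5.CRBN.Len5d stood at 13.98. Over both lines the change was -2.52 ± 0.50 (SE, limma adjusted p = 0.0127), which with a cap at Ct 32 shrank to -0.57 (adjusted p = 0.600). It was -1.82 with the global mean (adjusted p = 0.0832), -1.93 without My5.LV and -3.11 without My5.CRBN. All 3 calls under AGO2-sh72 were lost when the My5.LV, My5.CRBN or My5.LV.sh72 array was left out, with the lone array of a condition then assumed to vary like the others. The change of miR-744-5p stayed between -2.95 and -2.26 with 1 array left out in turn. In the My5.LV.sh72 pair miR-567 was also lower (-2.68) and miR-580-3p (2.40) and miR-549a (1.96) were higher, none of them called over both lines. In My5.CRBN.sh72, miR-1180-3p (1.51) and miR-924 (1.41) were the highest among those under the cap on both arrays.

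**Figure D2:**
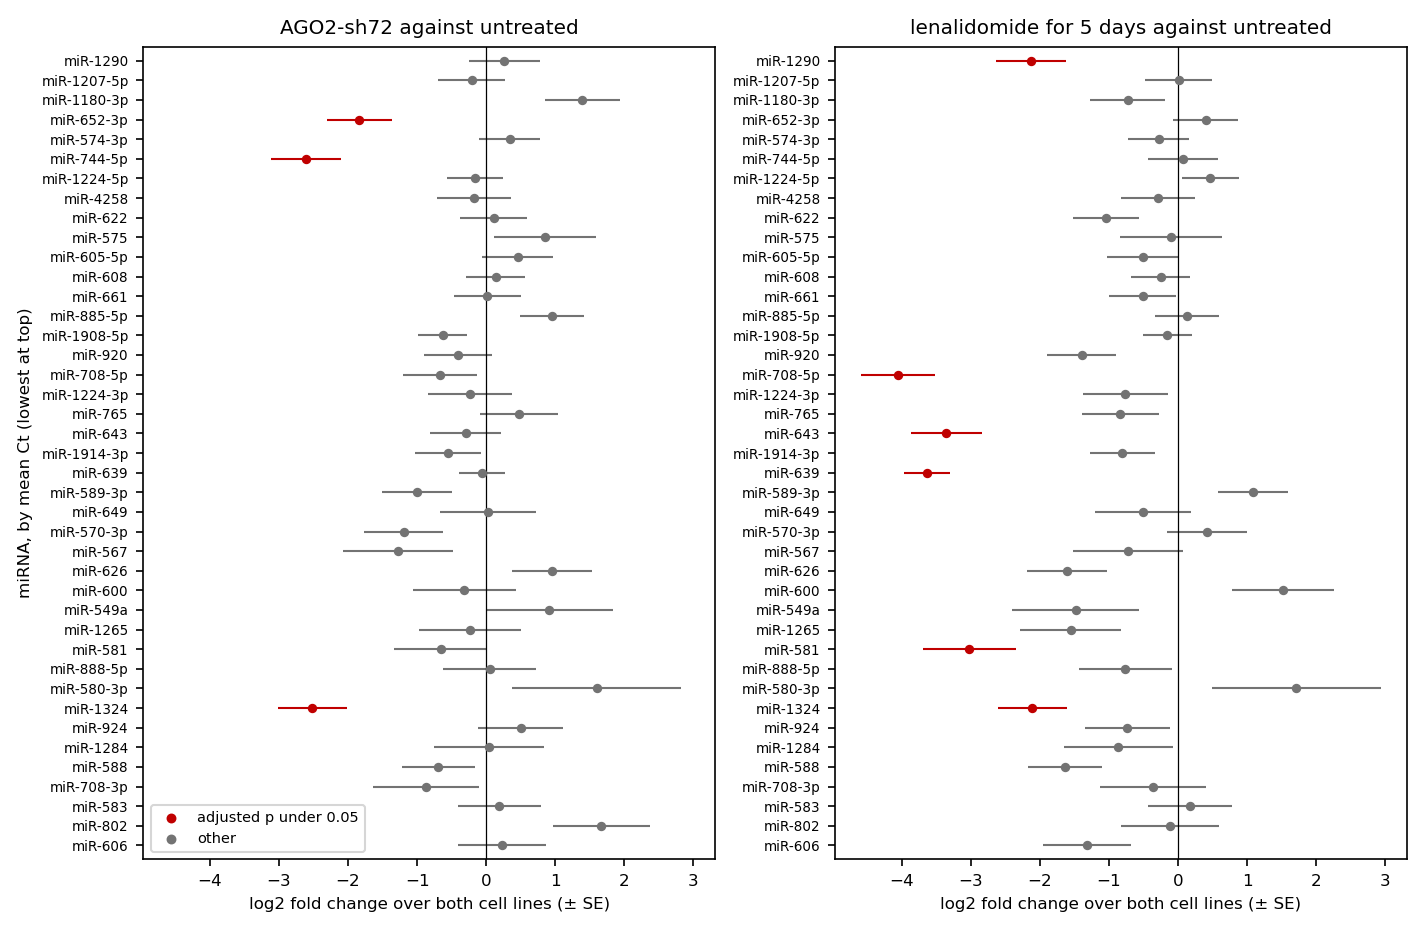
Log2 fold change over both cell lines (x axis, point ± SE from limma) of the 41 late-numbered miRNAs (y axis, lowest mean Ct at top) for AGO2-sh72 (left) and for 5 days of lenalidomide (right) against untreated cells, with adjusted p under 0.05 in red. There were 3 red points on the left (miR-652-3p, miR-744-5p and miR-1324) and 6 on the right, of which miR-708-5p lay farthest out (-4.06).

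After lenalidomide for 5 days miR-639, miR-708-5p, miR-643, miR-581, miR-1290 and miR-1324 were lower in both lines. The median log2 fold change of the 41 was -0.69 in My5.LV (all miRNAs -0.05, control well SD 0.41) and -0.37 in My5.CRBN (all miRNAs -0.15, SD 0.22). At least 3 fold lower were 10 of the 41 (24.4%) in My5.LV, against 14.2% of all miRNAs, and 8 (19.5%) in My5.CRBN, against 13.4%, of which miR-606 was at the cap on both arrays. At least 3 fold higher were 0 in My5.LV, against 4.3%, and 3 in My5.CRBN, against 5.11%. These 3 were miR-580-3p (1.91), miR-600 (1.61) and miR-589-3p (1.60).

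Over both lines 6 of the 41 (14.6%) fell, against 6.99% of all miRNAs, and 0 rose, against 0.806%. An unadjusted p under 0.05 was reached by 9 of the 41 (21.95%) and by 84 of all miRNAs (22.6%), so that at this looser level the share was near the background. Their median change over both lines was -0.72, against -0.05 for all miRNAs, and 31 of the 41 were below 0. The same count over all miRNAs was not made, but with a median under 0 at least as many lay below 0 as above it. Among miRNAs at a mean Ct from 28 to 32 the median was -0.96 for the late-numbered and -0.59 for the others in My5.LV, and -0.47 and -0.38 in My5.CRBN, and 4 of 23 and 12 of 113 fell over both lines.

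miR-639 stood apart in both lines after 5 days of lenalidomide. Its normalized Ct was 9.11 in My5.LV, 8.94 in My5.CRBN, 9.01 in My5.LV.sh72, 9.16 in My5.CRBN.sh72, 8.73 in My5.LV.AGO2, 9.07 in My5.CRBN.AGO2, 9.14 in My5.LV.Len3d, 9.25 in My5.CRBN.Len3d, 9.11 in My5.LV.AGO2+Len3d and 9.12 in My5.CRBN.AGO2+Len3d. In My5.LV.Len5d it was 12.7 and in My5.CRBN.Len5d 12.6. The 10 other arrays lay between 8.73 and 9.25, and neither Len5d array came near them. This separation, too, was seen on the arrays that gave the call. The log2 fold change was -3.62 in My5.LV and -3.64 in My5.CRBN, and -3.63 ± 0.33 (SE) over both lines, with a limma adjusted p of 0.000481. The call held with each of the 12 arrays left out in turn, with an adjusted p of at most 0.0209.

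miR-708-5p, known to be induced with its host gene in endoplasmic reticulum stress, fell most among the 6 in My5.CRBN and in the fit over both lines, while in My5.LV miR-643 (-3.80) and miR-639 (-3.62) fell more. Its normalized Ct was 8.12 in My5.LV, 7.39 in My5.CRBN, 8.56 in My5.LV.sh72, 8.29 in My5.CRBN.sh72, 8.75 in My5.LV.AGO2, 10.2 in My5.CRBN.AGO2, 8.51 in My5.LV.Len3d, 8.31 in My5.CRBN.Len3d, 8.06 in My5.LV.AGO2+Len3d and 8.48 in My5.CRBN.AGO2+Len3d. It was 11.3 in My5.LV.Len5d and 12.3 in My5.CRBN.Len5d, the lowest levels of the 12, with My5.CRBN.AGO2 next. The log2 fold change was -3.22 in My5.LV and -4.89 in My5.CRBN, and -4.06 ± 0.53 (SE) over both lines (limma adjusted p = 0.00196). This call also held without each of the 12 arrays, with an adjusted p of at most 0.0375, the change being -3.46 without My5.CRBN and -4.66 without My5.LV.

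miR-643 was lowest on the same arrays. Its normalized Ct was 12.3 and 11.4 on the Len5d arrays of My5.LV and My5.CRBN and from 8.30 (My5.CRBN.Len3d) to 10.3 (My5.CRBN.AGO2) on the others, again without overlap. The change was -3.80 in My5.LV and -2.91 in My5.CRBN, and over both lines -3.35 ± 0.51 (SE, limma adjusted p = 0.00366), and it was called with 11 of the 12 arrays left out in turn. miR-581 had a normalized Ct of 14.4 and 13.5 on the Len5d arrays, at a raw Ct of 34.0 and 32.2, and from 9.33 (My5.CRBN.Len3d) to 12.7 (My5.CRBN.AGO2) elsewhere. Its change was -3.02 ± 0.67 (SE, limma adjusted p = 0.0267). With a Ct cap of 32 the change shrank to -1.92 (limma adjusted p = 0.0837).

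miR-1290 is the most abundant of the 41, and its raw Ct at Len5d was 24.8 in My5.LV and 23.8 in My5.CRBN, far from the cap. Untreated it was 23.2 and 23.7. The raw Ct in My5.CRBN was thus almost unchanged, while the mean of the control wells went from 20.8 untreated to 18.7 at Len5d. Under the 4 alternative settings the change over both lines ran from -2.13 to -1.90. Its normalized Ct was 5.18 in My5.LV.Len5d and 5.10 in My5.CRBN.Len5d, against 3.08 and 2.95 untreated, and from 2.25 (My5.LV.AGO2) to 3.84 (My5.CRBN.AGO2) over the 10 other arrays. The change was -2.13 ± 0.51 (SE, limma adjusted p = 0.0331). miR-1324 fell by 2.11 ± 0.50 on the log2 scale (SE, limma adjusted p = 0.0326), but its arrays overlapped, with 12.7 and 13.98 at Len5d and 10.2 to 14.2 elsewhere, and with the global mean the adjusted p was 0.0619. Its change was -1.52 without My5.LV and -2.70 without My5.CRBN. The number called fell from 6 to 2 (miR-639 and miR-708-5p) without My5.CRBN, to 3 (these and miR-643) without My5.LV, My5.LV.Len5d or My5.CRBN.Len5d, and to 4 without either sh72 array. At least 3 fold lower in My5.LV but not in My5.CRBN were also miR-549a (-2.38), miR-588 (-2.34), miR-924 (-2.12) and miR-626 (-1.92), and in My5.CRBN but not in My5.LV miR-1265 (-1.64). Passing the limit in 1 line only does not show a difference between the lines, which was not tested. miR-1265 was nearly as low in My5.LV (-1.47).

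**Figure D3:**
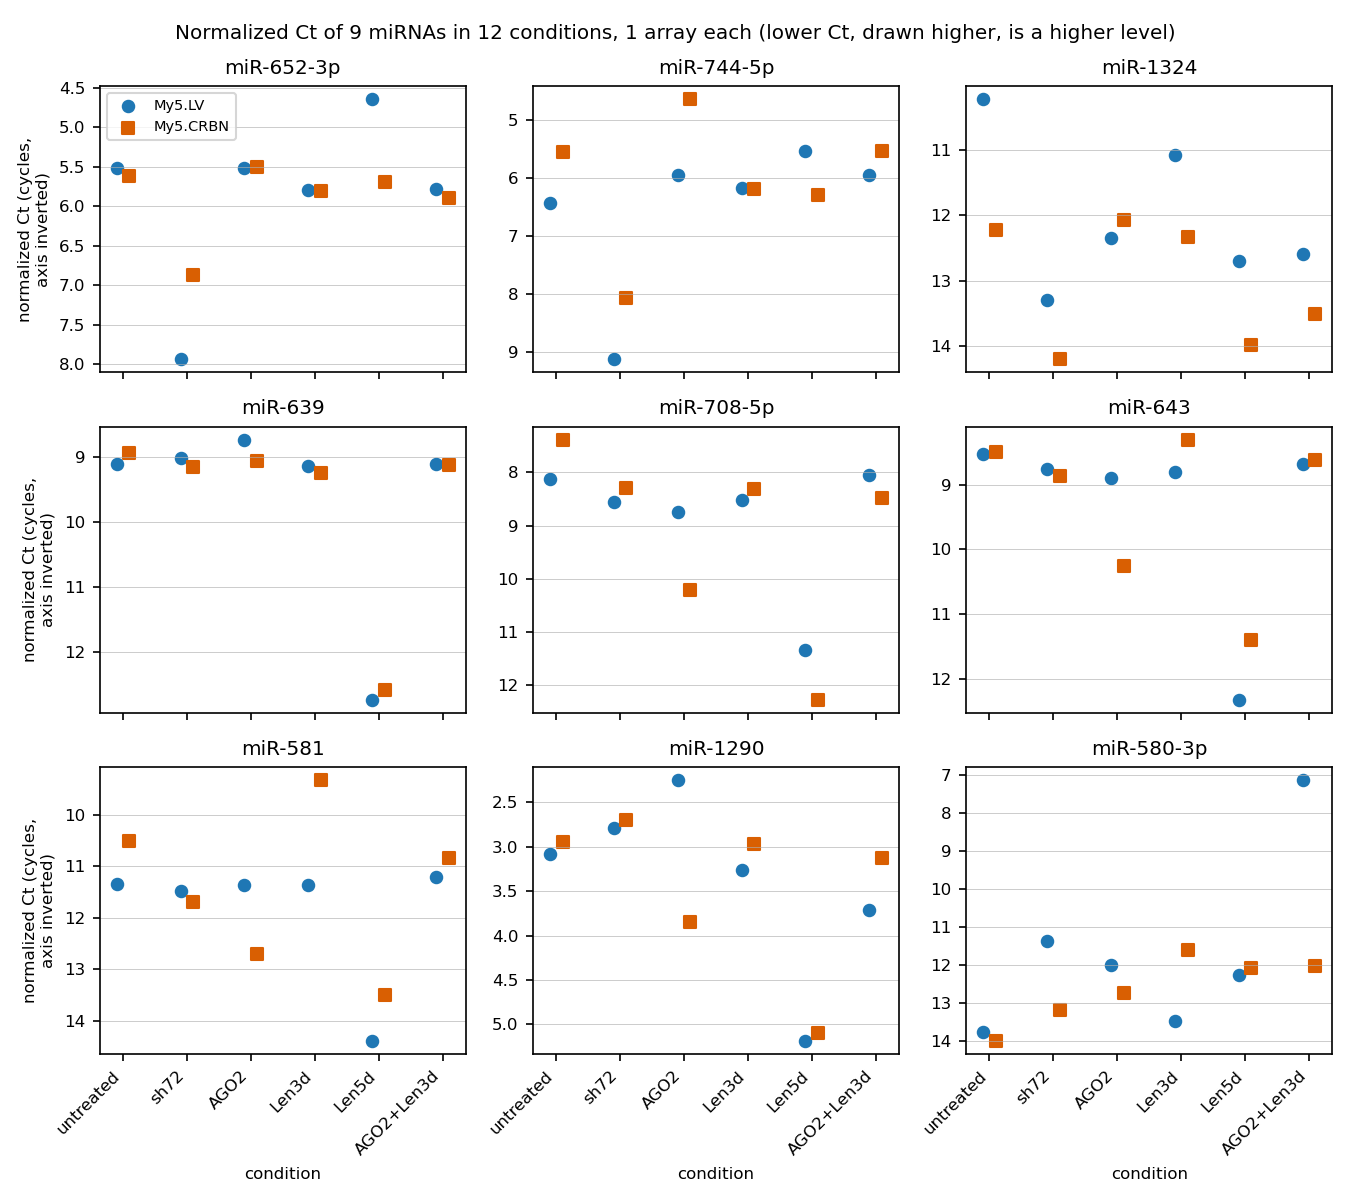
Normalized Ct in cycles (y axis, inverted so that a higher level is drawn higher) of 9 late-numbered miRNAs in the 6 conditions (x axis), 1 point per array, blue circles for My5.LV and orange squares for My5.CRBN. miR-744-5p and miR-652-3p stood apart at sh72 in both lines, miR-639, miR-708-5p, miR-643, miR-581 and miR-1290 at Len5d, and miR-580-3p on the My5.LV.AGO2+Len3d array (7.14).

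After lenalidomide for 3 days no late-numbered miRNA was called. In IMiD-resistant My5.LV cells the median of the 41 was -0.01 (all miRNAs -0.12, control well SD 0.18), 0 were at least 3 fold higher, against 0.538%, and 1 lower, against 0.538%. That 1 was miR-708-3p, at the cap after treatment and thus at least that much lower. Next lowest in this pair was miR-924 (-1.20), and the highest were miR-1224-5p (1.15) and miR-885-5p (1.02). In IMiD-sensitive My5.CRBN cells the median was 0.68 (all miRNAs 0.30, SD 0.22), and 3 of the 41 (7.32%) were at least 3 fold higher, against 9.95% of all. At a mean Ct from 28 to 32 the median was 0.65 for 23 late-numbered miRNAs and 0.73 for 113 others. The 3 were miR-1265 (3.07, from a normalized Ct of 11.9 to 8.81), miR-580-3p (2.40) and miR-649 (2.15). The 1 miRNA counted as at least 3 fold lower, against 1.61%, was miR-802, at the cap on both arrays, so its value is that of the normalizer. With limma, 0 of all miRNAs were called over both lines, and 2 of the 41 and 18 of all had an unadjusted p under 0.05.

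Between the 2 lengths of treatment, 7 of the 41 (17.1%) were lower after 5 days than after 3 in limma, against 8.33% of all miRNAs, and 0 were higher, as were 0 of all. An unadjusted p under 0.05 in either direction was reached by 15 of the 41 and 96 of all. They were miR-639 (-3.46 ± 0.33, SE, adjusted p = 0.00073), miR-708-5p (-3.40), miR-643 (-3.31), miR-581 (-3.60), miR-1265 (-3.18), miR-626 (-2.34) and miR-1290 (-2.03), the other 6 with adjusted p from 0.00394 to 0.0374. The count was 1, miR-639, without My5.CRBN.Len3d, 2 without My5.CRBN.Len5d, 3 without My5.LV.Len5d and 4 without either untreated array. miR-626 and miR-1290 were called with 5 and 4 of the 12 arrays left out in turn, and miR-1265 with 7. The value of miR-1265 was -1.79 without My5.CRBN.Len3d and -4.57 without My5.LV.Len3d, that of miR-581 -2.64 and -4.56, and that of miR-626 -1.62 and -3.06.

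Since AGO2-sh72 and 5 days of lenalidomide were compared with the same untreated arrays, the 2 treatments were also set against each other. miR-744-5p (2.68 ± 0.51, SE, adjusted p = 0.00346), miR-652-3p (2.24), miR-589-3p (2.08) and miR-570-3p (1.61) were higher after 5 days of lenalidomide than with AGO2-sh72 in limma, which is 4 of the 41 against 36.6% of all miRNAs. The call of miR-570-3p was lost with a cap at Ct 32 (1.09, adjusted p = 0.109) and with the global mean (1.14, adjusted p = 0.119). It held with 5 of the 12 arrays left out in turn, the value being 0.79 without My5.CRBN.Len5d and 2.44 without My5.LV.Len5d. In contrast, 7 of the 41 (17.1%) were lower, against 14% of all, namely miR-639 (-3.57), miR-708-5p (-3.38), miR-643 (-3.06), miR-626 (-2.56), miR-1290 (-2.39), miR-581 (-2.36) and miR-1180-3p (-2.12). Of these, miR-581 and miR-1180-3p were not called with every array left out in turn. Their values then ran from -2.74 to -1.98 and from -2.54 to -1.70. Without My5.LV.sh72 miR-744-5p was the 1 still called higher, and without My5.CRBN.Len5d the higher ones were 2, miR-744-5p and miR-652-3p. Left-out arrays moved miR-744-5p to 1.93 (without My5.LV.Len5d) and 3.43 (without My5.CRBN.Len5d) and miR-589-3p to 2.79 and 1.38 in the same order. miR-652-3p was 1.58 without My5.LV.sh72, 1.63 without My5.LV.Len5d, 2.85 without My5.CRBN.Len5d and 2.90 without My5.CRBN.sh72. miR-1324 was called against untreated cells in both treatments and was not called between them (0.41). A cap at Ct 32 turned its direction, and it was then called lower after 5 days of lenalidomide. Its wells in both treatments lay above that cap, so this value is that of the normalizer.

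With AGO2 cDNA again no late-numbered miRNA was called. In My5.LV.AGO2 the median was 0.48 (all miRNAs 0.17, control well SD 0.41), with 5 of the 41 (12.2%) at least 3 fold higher, against 5.91%, and 1 lower, against 0.806%. The higher ones were miR-549a (2.28), miR-575 (1.94), miR-580-3p (1.78), miR-765 (1.75) and miR-1180-3p (1.66), and the lower one was miR-1324 (-2.12). In My5.CRBN.AGO2 the median was -0.25 (all miRNAs -0.11, SD 0.56), with 0 higher, against 2.15%, and 4 (9.76%) lower, against 6.18%. The lower ones were miR-708-5p (-2.82), miR-581 (-2.21), miR-643 (-1.76) and miR-567 (-1.62). This array had the highest raw Ct of the control wells and the fewest miRNAs under the cap (324). With the global mean or with a cap at Ct 32 the number lower was 2 of the 41, against 3.76% of all miRNAs under either setting. With limma, 0 of all miRNAs were called, and 1 of the 41 and 35 of all had an unadjusted p under 0.05.

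AGO2 cDNA together with lenalidomide for 3 days gave the largest single change of the 41. miR-580-3p had a normalized Ct of 13.8 in My5.LV, 13.997 in My5.CRBN, 11.4 in My5.LV.sh72, 13.2 in My5.CRBN.sh72, 12.0 in My5.LV.AGO2, 12.7 in My5.CRBN.AGO2, 13.5 in My5.LV.Len3d, 11.6 in My5.CRBN.Len3d, 12.3 in My5.LV.Len5d, 12.1 in My5.CRBN.Len5d and 12.0 in My5.CRBN.AGO2+Len3d. In My5.LV.AGO2+Len3d it was 7.14, at a raw Ct of 25.9 in place of 33.9. Its log2 fold change was 6.64 there and 1.96 in My5.CRBN.AGO2+Len3d, and it rested on 1 well of 1 array. It was higher than untreated in all 10 treated arrays, and was called in none of the conditions over both lines, except for AGO2+Len3d when My5.CRBN.AGO2+Len3d was left out and only the My5.LV array remained. The comparisons of the 10 treated arrays rest on 2 untreated wells, at a raw Ct of 33.9 and 34.8, so their common sign is not independent evidence. With a cap at Ct 32, which both untreated wells exceeded, 5 of the 10 values turned negative. In 2 of these 5, My5.CRBN.sh72 and My5.CRBN.AGO2+Len3d, the treated well was above 32 as well, so that the value is that of the normalizer.

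Otherwise My5.LV.AGO2+Len3d held miR-570-3p (2.15) and miR-600 (1.64) among its 3 of 41 at least 3 fold higher, against 2.42%, and 5 (12.2%) lower, against 5.11%. The lower ones were miR-924 (-2.88), miR-567 (-2.87), miR-708-3p (-2.87), miR-1324 (-2.37) and miR-649 (-1.85). The median was -0.27 (all miRNAs -0.17), and the control wells of this pair had the widest SD, 0.67. In My5.CRBN.AGO2+Len3d the median was -0.16 (all miRNAs -0.07, SD 0.37), with 1 higher, miR-580-3p, against 4.3%, and 0 lower, against 0.806%. Among those under 3 fold, miR-626 (1.18) was the highest and miR-600 (-1.57) and miR-708-3p (-1.54) the lowest. With limma, 0 of all miRNAs were called, and 4 of the 41 and 28 of all had an unadjusted p under 0.05.

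**Figure D4:**
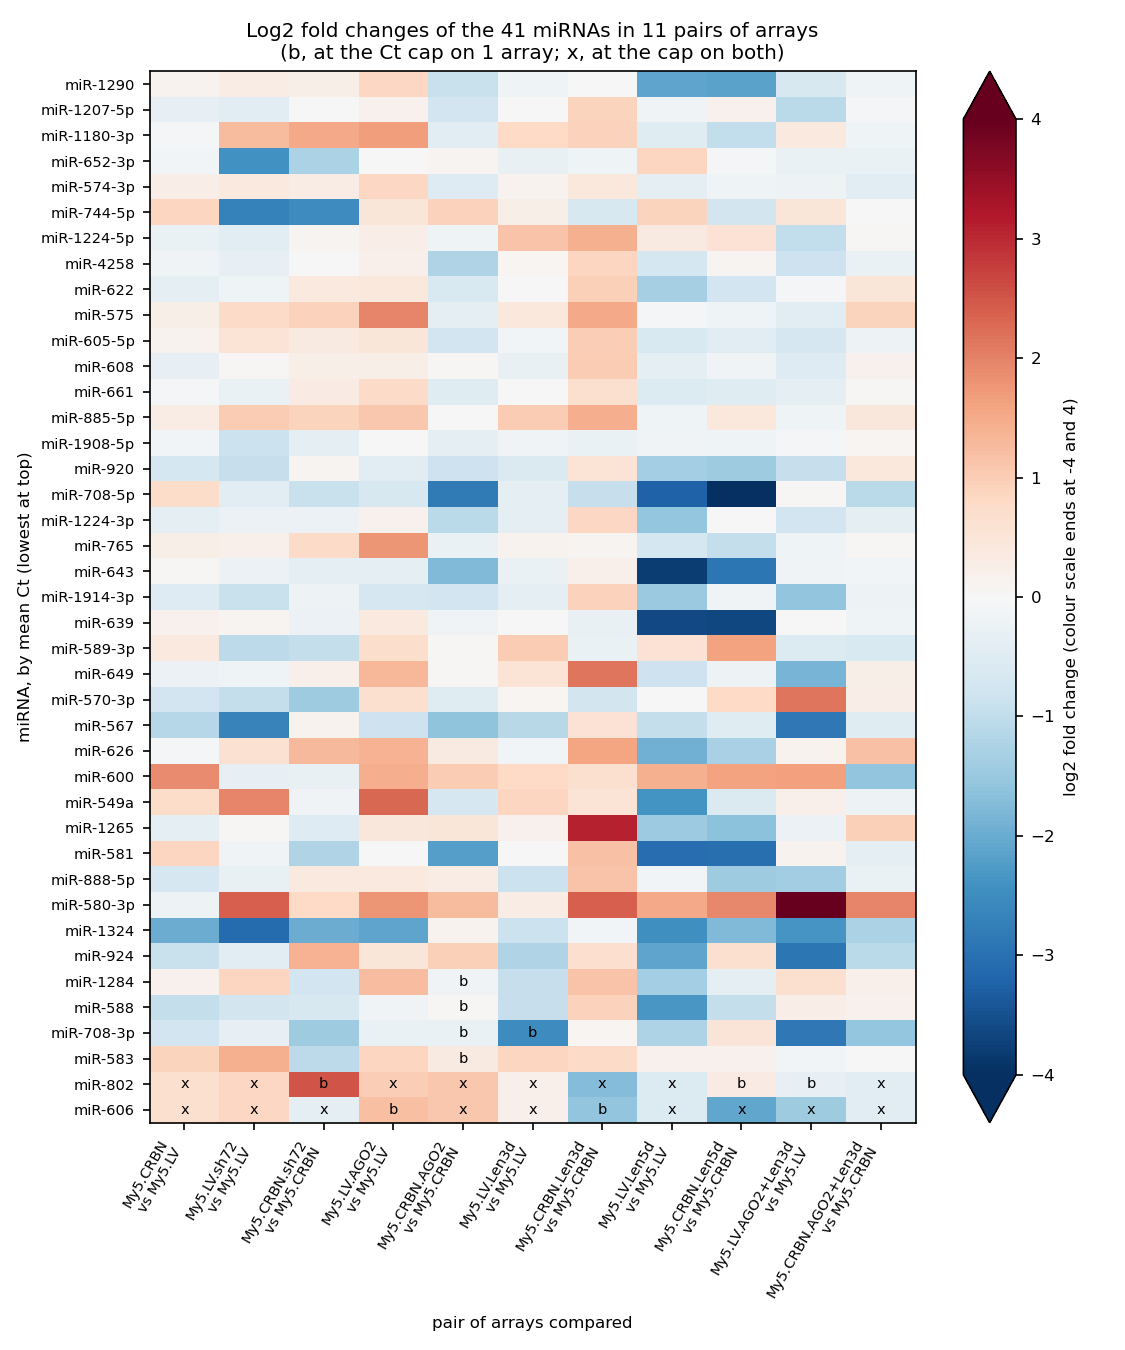
Log2 fold change (colour, red higher and blue lower, scale ending at -4 and 4) of the 41 late-numbered miRNAs (y axis, lowest mean Ct at top) in the 11 pairs of arrays (x axis), with b for a miRNA at the Ct cap on 1 array of the pair and x for both. The darkest cells were miR-580-3p in My5.LV.AGO2+Len3d (6.64) and miR-708-5p in My5.CRBN.Len5d (-4.89).

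Few of these miRNAs differed by 3 fold between the untreated lines. In My5.CRBN against My5.LV cells the median of the 41 was -0.09 (all miRNAs -0.06, control well SD 0.22), with 1 at least 3 fold higher, against 2.15%, and 1 lower, against 1.88%. miR-600 was higher (1.89) and miR-1324 lower (-1.99). miR-583 (0.88) and miR-567 (-1.13) came next. The untreated My5.LV array had the highest level of miR-1324 among the 12, and it is the control of every My5.LV pair. Over the 6 conditions, 0 of the 41 differed between the lines in limma, against 0.538% of all in each direction (miR-600 was called higher in My5.CRBN when either AGO2+Len3d array was left out), and 3 of the 41 and 53 of all had an unadjusted p under 0.05.

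Both arms were measured for 2 of the hairpins. In miR-708 the 5p arm exceeded the 3p arm by a median of 4.24 on the log2 scale of normalized Ct, but the excess ran from 6.93 in My5.LV.AGO2+Len3d to 0.08 in My5.CRBN.Len5d, with 2.02 in My5.LV.Len5d and 4.00 and 5.49 in untreated My5.LV and My5.CRBN. The 3p arm was at the cap in My5.LV.Len3d and My5.CRBN.AGO2, where the excess is a lower bound (6.12 and 2.93), so 6.93 is the highest measured on both arms and the median could be higher. The Len5d arrays had the smallest excess of the 12. In miR-1224, the mirtron, the excess of the 5p arm ran only from 1.01 to 3.15, with a median of 1.68. The arms were read by different assays, so the change in the excess, and not its size, can be compared.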

How the data were processed

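The authors isolated total RNA with the miRNeasy Mini kit, reverse transcribed it with the miScript II RT kit and ran miScript miRNA PCR Arrays on an Applied Biosystems real-time PCR system. The deposited Ct table holds 1 unnormalized Ct score per well and array, and wells listed as undetermined were set to the cap. The authors' deposited table of fold changes, made with the kit maker's online software, holds their own comparisons and was not used. Ct was capped at 35 and normalized to the 6 small-RNA wells by subtracting their mean. Each treated array was compared with the untreated array of its line, and My5.CRBN with My5.LV, in 11 pairs. limma 3.58.1 (R 4.3.3) was fitted to all miRNAs, with line and condition as terms, and was checked on simulated data. The members, lists and named miRNAs were chosen with earlier results of these data known. Named were 5 miRNAs given with the rule, the 3 of lowest and highest mean Ct, the 2 largest changes each way in each pair, those called, hairpins with both arms, and those at the cap on at least 6 arrays. A few others past 3 fold were added to these with their values known. The contrasts of 5 days of lenalidomide with 3 days and with AGO2-sh72, the leaving out of single arrays and the split by Ct were added after seeing the data. The alternatives were the global mean, RNU6-2 alone, a cap at 32 and miRNAs under Ct 35 on every array compared. Sequences came from RefSeq.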

Additional observations from a re-analysis of the deposited data

Results flagged for a closer look

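In 2 miRNAs the change was at least 2 fold in both lines and opposite in direction, and neither difference was tested, since each line had 1 array per condition. miR-583 with AGO2-sh72 changed by 1.42 on the log2 scale in My5.LV and by -1.04 in My5.CRBN, and its raw Ct was between 33.9 and 34.98 on all 4 arrays, close to the cap. miR-600 with AGO2 cDNA and 3 days of lenalidomide changed by 1.64 in My5.LV and by -1.57 in My5.CRBN.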

How the results depend on the processing

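With RNU6-2 alone as normalizer, 8 of the 41 were called lower with AGO2-sh72 in place of 3 (48.1% of all miRNAs in place of 28.5%), 3 in place of 0 with AGO2+Len3d (4.57% of all in place of 0), and 7 in place of 4 were higher after 5 days of lenalidomide than with AGO2-sh72 (48.9% of all in place of 36.6%). The medians became -0.34 (My5.CRBN against My5.LV), -0.47 (My5.CRBN.sh72), -1.20 (My5.LV.sh72), -0.84 (My5.CRBN.AGO2+Len3d), -1.43 (My5.LV.AGO2+Len3d) and -0.16 (My5.LV.AGO2). With the global mean, 0 were called lower (0.269% of all) and 1 (miR-1180-3p) higher (2.69% of all) with AGO2-sh72, and 20 in place of 7 were lower after 5 days of lenalidomide than with AGO2-sh72 (29% of all in place of 14%), with medians of 0.53 (My5.CRBN.sh72), 0.64 (My5.LV.sh72), 0.33 (My5.CRBN.Len3d) and -0.14 (My5.CRBN.Len5d). With a cap at Ct 32, 14 were lower in that last contrast (28% of all), the medians were 0.17 (My5.CRBN against My5.LV), 0.41 (My5.CRBN.Len3d) and -0.76 (My5.CRBN.Len5d), and the change turned to -0.47, -0.39, -0.88, -0.42 and -0.35 for miR-580-3p in My5.CRBN.AGO2+Len3d, My5.CRBN.Len3d, My5.CRBN.Len5d, My5.LV.Len5d and My5.CRBN.sh72 and to -0.35 for miR-802 in My5.CRBN.sh72, the untreated wells lying above that cap. The treated wells did so too in My5.CRBN.sh72 (both miRNAs) and My5.CRBN.AGO2+Len3d, where the value is that of the normalizer. The cause of the other shifts was not tested.

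Leaving out 1 array at a time, the number called lower ran from 0 to 3 for AGO2-sh72 (0 to 31.2% of all), 2 to 6 for Len5d (1.88 to 8.6%), 1 to 10 for Len5d against Len3d (2.42 to 11.6%) and 5 to 10 for Len5d against AGO2-sh72 (7.53 to 16.9%), and the number called higher from 0 to 1 for AGO2-sh72 (miR-1180-3p without either AGO2 array, miR-802 without either Len3d array), Len5d (miR-600 without either AGO2+Len3d array), AGO2+Len3d and between the lines (at most 1.34%, 1.61%, 0.269% and 0.806% of all), and from 1 to 5 for Len5d against AGO2-sh72 (19.1 to 38.2%). The number at least 3 fold lower in My5.LV.AGO2+Len3d went from 5 to 18 with RNU6-2 alone (5.11 to 36.6% of all miRNAs), in My5.LV.sh72 from 4 to 10 (23.7 to 54%), in My5.CRBN.sh72 from 2 to 6 (12.9 to 28%) and in My5.CRBN.AGO2+Len3d from 0 to 5 (0.806 to 8.06%), and with a cap at 32 in My5.LV.Len5d from 10 to 5 (14.2 to 8.87%) and in My5.CRBN.Len5d from 8 to 13 (13.4 to 23.1%). The number at least 3 fold higher in My5.LV.sh72 went from 2 to 9 (1.88 to 12.6%) and in My5.CRBN.sh72 from 1 to 4 (1.61 to 6.45%) with the global mean, and in My5.LV.AGO2 from 5 to 1 (5.91 to 1.88%) with RNU6-2 alone. The number at least 3 fold lower in My5.CRBN.AGO2 went from 4 to 2 with the global mean and with a cap at 32 (6.18 to 3.76%). The other such counts moved by at most 2. Without repeats of a condition, a change in 1 pair cannot be told apart from the variation of single wells, above all near Ct 35.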

Other observations

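By number, the 10 miRNAs from miR-549a to miR-589-3p were the weakest, with a median mean Ct of 31.2, against 29.5 for the 11 from miR-600 to miR-661, 29.4 for the 9 from miR-708 to miR-924 and 29.1 for the 11 from miR-1180-3p to miR-4258. After 5 days of lenalidomide the median log2 fold change over both lines was -0.19, -0.51, -0.73 and -0.76 in these ranges, and 6 of 10, 9 of 11, 7 of 9 and 9 of 11 were below 0. These counts have no matching count over all miRNAs beside them. The miRNAs that fell came from all of the ranges, with 1, 2, 1 and 2 of them. With AGO2-sh72 the medians were -0.24, 0.02, 0.05 and -0.21, with 0, 1, 1 and 1 called lower.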
